A study of Mus musculus with 12 samples.

Results

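The XBP1 dependence of the 24 h response is the difference between what 24 h of tunicamycin did to miRNA levels in wild type mouse embryonic fibroblasts (MEFs) and what it did in XBP1 knockout MEFs. For each miRNA the change from untreated to 24 h in knockout was subtracted from the same change in wild type. A positive value therefore means that the miRNA rose more, or fell less, in wild type. The comparison used 8 of the study's 12 arrays, 2 in each of 4 groups: untreated wild type, wild type given 2 ug/mL tunicamycin for 24 h, untreated XBP1 knockout, and XBP1 knockout given the same dose for 24 h. All cells were of the C57BL/6 background and were grown in the same serum-containing medium. The labels name the genotype XBP1KO without an allele, line or embryo, and they mention no vehicle for the untreated cells. They call the replicates independent experiments. The other 4 arrays were of cells treated for 12 h, the time the study's own design text asks about.

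XBP1 drives part of the unfolded protein response. The endoplasmic reticulum sensor IRE1 splices its mRNA, and the spliced form encodes the active factor, which induces genes for protein folding, secretion and degradation. Tunicamycin blocks N-linked glycosylation and so loads the endoplasmic reticulum with misfolded glycoproteins. A miRNA finds its target mRNAs mainly through its seed, bases 2 to 8 from the 5′ end, so miRNAs with the same seed share many predicted targets. The arrays carry probes for miRNAs and none for Xbp1 mRNA, so the genotype could not be checked on the targeted gene.

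The sequences shown first are those of the family around miR-497 and miR-195, which passed the test as a pair, with miR-503, which also passed and whose seed has 6 of 7 positions in common with theirs. They are mature sequences from RefSeq (GRCm38.p6), 5′ to 3′, with the seed in capitals. The array names of most of these miRNAs state no arm, and the arm given here follows the later naming.
miR-497 (miR-497a-5p): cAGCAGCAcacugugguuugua
miR-195 (miR-195a-5p): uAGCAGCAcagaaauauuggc
miR-15a (miR-15a-5p): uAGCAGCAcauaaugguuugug
miR-15b (miR-15b-5p): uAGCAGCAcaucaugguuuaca
miR-16 (miR-16-5p): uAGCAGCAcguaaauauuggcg
miR-322 (miR-322-5p): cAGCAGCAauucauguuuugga
miR-503 (miR-503-5p): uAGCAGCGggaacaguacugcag
The first 6 have an identical seed. Outside it they differ: over the first 20 bases miR-497 has 12 positions in common with miR-195 and 16 with miR-15a, while miR-195 has 18 in common with miR-16. Mature miR-497 lies at chr11:70234730-70234751 and miR-195 at chr11:70235062-70235082, both on the plus strand and 310 bases apart, in no protein-coding gene of the annotation. miR-503 lies at chrX:53054027-53054049 on the minus strand.

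The next 3 are shown because they share a seed and 1 of them, miR-152, was called, and the rest because the remaining results turn on them.
miR-152 (miR-152-3p): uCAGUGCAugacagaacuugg
miR-148a (miR-148a-3p): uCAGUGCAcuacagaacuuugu
miR-148b (miR-148b-3p): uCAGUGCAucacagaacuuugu
miR-155 (miR-155-5p): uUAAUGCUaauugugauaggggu
miR-335-5p: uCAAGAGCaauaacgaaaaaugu
miR-9 (miR-9-5p): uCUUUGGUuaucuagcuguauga
miR-532-3p: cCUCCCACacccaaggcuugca
miR-337-5p: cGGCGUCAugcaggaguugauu
miR-542-5p: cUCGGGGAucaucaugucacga
miR-24 (miR-24-3p): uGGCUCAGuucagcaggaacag
miR-652 (miR-652-3p): aAUGGCGCcacuaggguugug
miR-93 (miR-93-5p): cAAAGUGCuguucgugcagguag
miR-106b (miR-106b-5p): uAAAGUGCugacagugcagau
miR-25 (miR-25-3p): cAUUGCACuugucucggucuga
miR-152 lies at chr11:96850439-96850459 on the plus strand, within the span of Copz2, and miR-148b lies within that of Copz1. miR-155 lies at chr16:84714143-84714165 on the plus strand, in no protein-coding gene. miR-335-5p lies at chr6:30741314-30741336 on the plus strand, within Mest. miR-532-3p lies within Clcn5, and miR-106b, miR-93 and miR-25 lie within 476 bases of each other in Mcm7. A host gene is named here wherever its span contains the miRNA, whatever the strand.

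Values are log2 scaled signals, so a rise or fall is relative to the level each array was scaled to. A floor of 10.0, or 3.33 on the log2 scale, was set because weaker signals carry no order. A miRNA was detected on an array where the scanner software called it so, and it was dark in a group where neither array detected it. A difference was called at an adjusted p under 0.05 (limma with Benjamini-Hochberg adjustment over the 256 mouse miRNAs tested). The total unscaled signal of an array ran from 94800 to 186000 in the untreated groups and from 14100 to 41900 at 24 h, and mouse miRNAs detected from 193 to 222 and from 120 to 159. The replicates were much closer untreated than at 24 h. Over the 99 miRNAs detected on all 8 arrays, the median standard deviation within a group was 0.0449 in untreated wild type and 0.0407 in untreated knockout, against 0.251 and 0.337 at 24 h. All untreated arrays were on 1 slide and all tunicamycin arrays on another, and the effects of slide and of treatment cannot be told apart. Within each slide all wild type arrays were in the first row and all knockout arrays in the second, so row and genotype cannot be told apart. With 2 arrays a group, their number sets how precise any value can be.

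Most miRNAs gave no call. Of 256 tested, 12 (4.69%) were called, 5 (1.95%) with a positive and 7 (2.73%) with a negative difference, and 30 had an unadjusted p under 0.05. The 5 positive ones were miR-497, miR-195, miR-503, miR-9 and miR-337-5p. The 7 negative ones were miR-155, miR-152, miR-532-5p, miR-335-5p, miR-374, miR-532-3p and miR-542-5p. The median difference over all tested was 0, with a middle 50% from −0.23 to 0.29. In bulk RNA, fewer cells that make a miRNA and less of it per cell cannot be told apart.

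Calls were unevenly placed by signal. Of the 99 miRNAs detected on all 8 arrays 1 (1.01%) was called, miR-155, and 10 had an unadjusted p under 0.05. Of 46 detected on at least 1 array of each group but not on all 8, 1 was called, miR-497. Of 111 that were dark in 1 or more groups 10 were called, and 10 of the 12 called miRNAs sat at the floor on at least 1 of the 8 arrays. Values at the floor have no spread, so the standard errors of these are too small. A response measured against the floor is only a limit on the true response, and the difference of responses keeps a direction only where no more than 1 side is limited. Among the 12 called, 2 were measured in all 4 groups, 4 gave a bound on the difference, and 6 gave none. In all 12 the responses in wild type, over every pairing of a 24 h with an untreated array, did not overlap those in knockout. That was also so for 62 of the 256 tested (24.2%) and for 25 of the 99 detected on every array (25.3%).

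**Figure D1:**
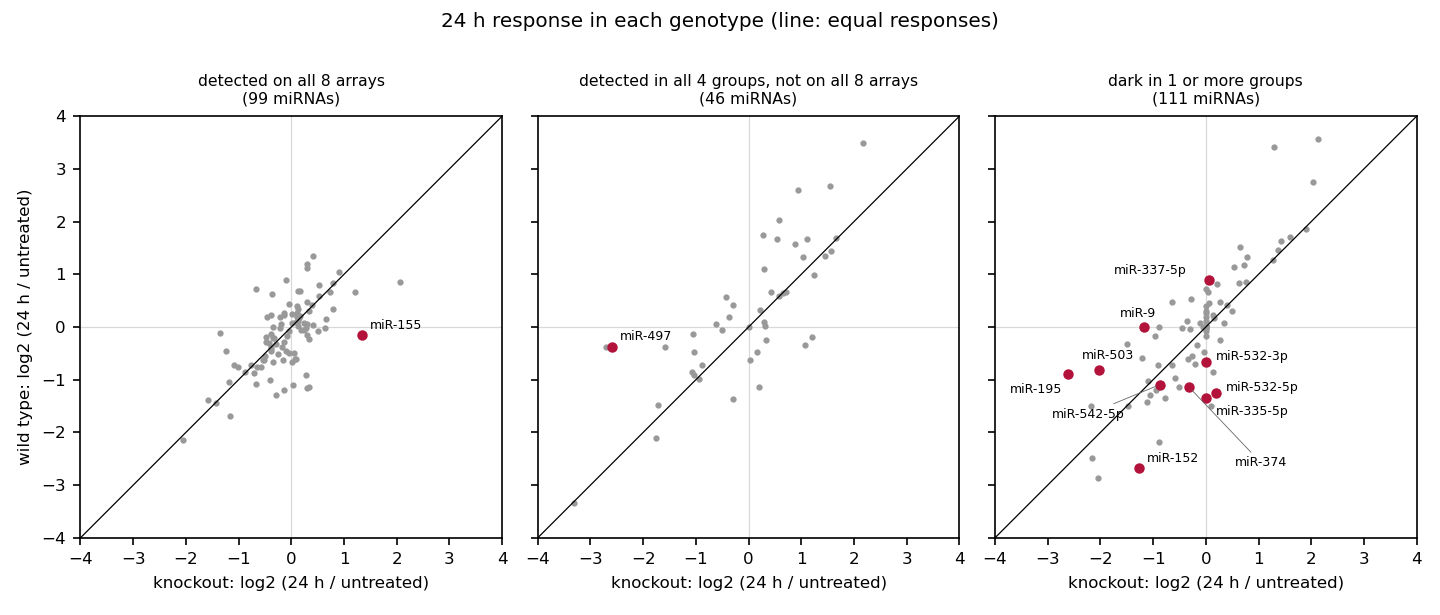
Change in log2 scaled signal from untreated to 24 h of tunicamycin in knockout (horizontal) and wild type (vertical), 1 point per miRNA, in 3 panels by detection; the diagonal marks equal responses and red points have an adjusted p under 0.05. A single red point stands in the panel of 99 miRNAs detected on all 8 arrays, a single one among the 46 of the second panel, and 10 among the 111 that were dark in at least 1 group.

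miR-497 and miR-195, neighbours on chromosome 11 whose family is known for restraining cell-cycle genes such as cyclins, fell in knockout far more than in wild type. miR-497 read 5.09 and 5.04 in untreated wild type, 5.00 and 4.38 in wild type at 24 h, 6.23 and 6.27 in untreated knockout, and 3.82 and 3.48 in knockout at 24 h. Knockout arrays were thus the highest before treatment and the lowest after it, with no overlap between the genotypes at either time. The response was −0.37 in wild type (limma adjusted p = 0.367) and −2.60 in knockout (limma adjusted p = 0.000413). Their difference was 2.22 (SE 0.33, limma adjusted p = 0.0103). It remained called when any 1 of the 12 arrays was left out, with values from 1.91 to 2.53. At 24 h, 1 of the 2 knockout arrays detected it.

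miR-195 read 4.69 and 4.72 in untreated wild type, 3.73 and 3.88 at 24 h, 5.94 and 6.03 in untreated knockout, and 3.33 and 3.43 in knockout at 24 h. The order was the same as for miR-497, with the 24 h knockout signal at or next to the floor. The response was −0.89 in wild type (limma adjusted p = 0.0303) and −2.61 in knockout (limma adjusted p = 0.000313), a fitted difference of 1.72 (SE 0.31, limma adjusted p = 0.0266). Treated knockout alone was limited as a group, which gave a bound of at least 1.72. The first 24 h wild type array did not detect miR-195 either. A lower true level there would lower the difference, so this bound is not firm. With outlier spots kept the difference was 0.22 and was not called, so the bound depends on dropping those spots. The call was lost without any 1 of 7 arrays, which were the 4 untreated ones, both 12 h knockout ones and the second 24 h wild type one, at limma adjusted p from 0.0569 to 0.0965.

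The other 4 miRNAs of the seed did not move with them. miR-15a, miR-15b, miR-16 and miR-322 were detected on all 8 arrays, and their differences lay between −0.54 and −0.11 with none called. Over the 6 tested members of the family 2 were called, both positive, and the median was −0.24, against 0 over all tested miRNAs. That median turned to 0.11 without the second 24 h wild type array, to 0.022 without the second 24 h knockout array and to 0.23 with normexp, and it was −0.49 and −0.48 without the first array of those groups. miR-503 is made from the X-linked cluster that also holds miR-322 and is known to be induced as myoblasts leave the cell cycle. It read 4.0 and 4.27 in untreated wild type and 5.21 and 5.52 in untreated knockout, and 3.33 on all 4 arrays at 24 h. Both genotypes thus ended at the floor, and the difference of 1.23 (SE 0.16, limma adjusted p = 0.00566) equals the untreated difference with its sign turned, so the size and direction of the dependence have no bound. Of the 6 tested miRNAs of this cluster, which runs from miR-322 to miR-450 and holds miR-542-5p, 1 was called positive and 1 negative, and their median was −0.05.

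**Figure D2:**
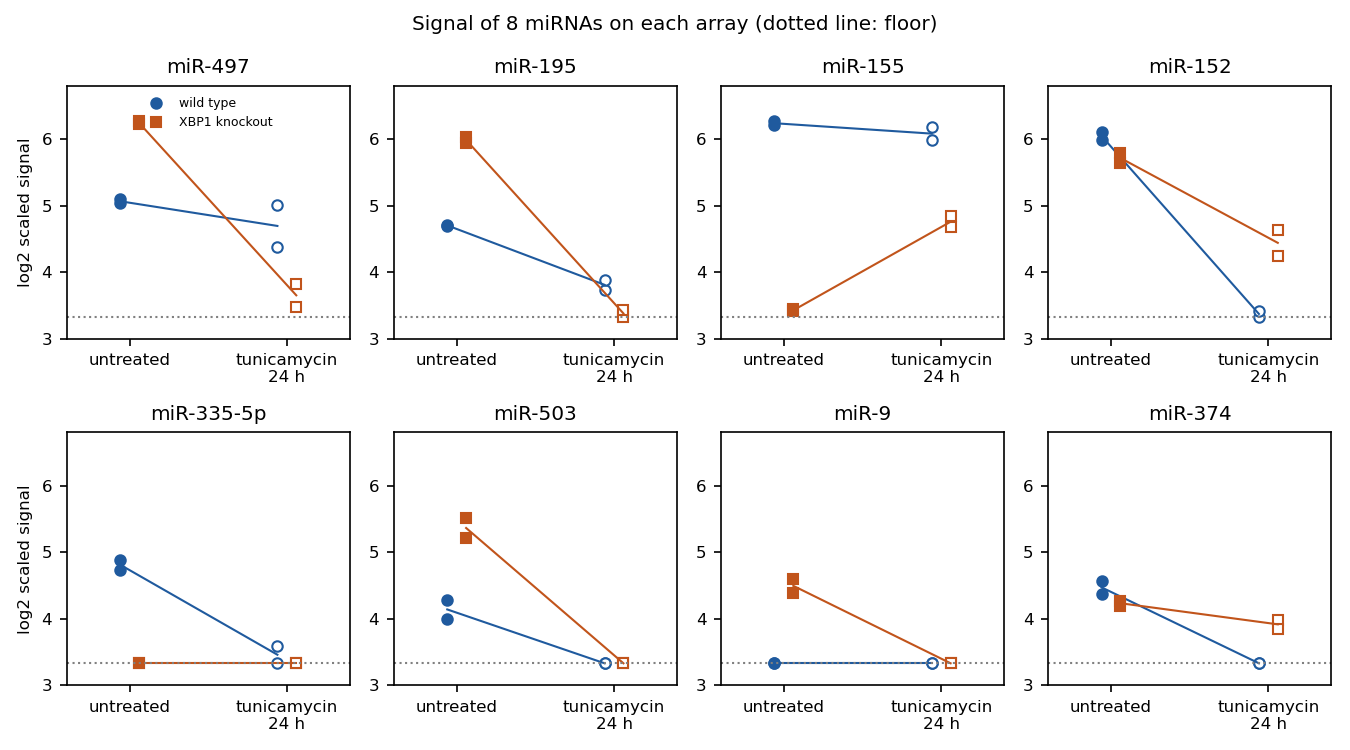
Log2 scaled signal of 8 called miRNAs on each of the 8 arrays, wild type as circles and XBP1 knockout as squares, filled when untreated and open at 24 h; lines join group means and the dotted line is the floor at 3.33. For miR-497 the knockout falls from 6.23 and 6.27 to 3.82 and 3.48 and crosses wild type, while for miR-155 the knockout rises from 3.44 and 3.41 and stays below wild type.

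miR-155 was the only called miRNA detected on all 8 arrays. It is processed from a noncoding transcript and is known as a miRNA of activated immune cells that fibroblasts also make. It read 6.21 and 6.27 in untreated wild type, 6.18 and 5.99 in wild type at 24 h, 3.44 and 3.41 in untreated knockout, and 4.84 and 4.68 in knockout at 24 h. All 4 wild type arrays stood above all 4 knockout arrays. Wild type showed a response of −0.16 (limma adjusted p = 0.758), while in knockout the scaled signal of miR-155 rose by 1.33 (limma adjusted p = 0.00695). The difference was −1.49 (SE 0.30, limma adjusted p = 0.0361). Before scaling, its own probe totals fell in both genotypes. They went from 21.07 and 22.08 to 13.23 and 13.03 in knockout, and from 81.51 and 104.2 to 12.71 and 28.14 in wild type. The genotype gap, wild type minus knockout, was 2.82 before treatment and 1.33 after it. None of the other 7 blood-cell markers on the array was detected in any of the 4 groups. The call was lost without any 1 of 7 arrays, the same ones as for miR-195, at limma adjusted p from 0.0551 to 0.138, and the difference stayed between −1.58 and −1.40. It was also lost with the scan as a fixed block, at a limma adjusted p of 0.0532.

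miR-152, which lies in Copz2 and is known to repress the DNA methyltransferase Dnmt1, fell in both genotypes and further in wild type. It read 5.99 and 6.11 in untreated wild type, 3.33 and 3.41 at 24 h, 5.63 and 5.80 in untreated knockout, and 4.25 and 4.63 in knockout at 24 h. The untreated groups were close, and at 24 h both wild type arrays were at or next to the floor and below both knockout arrays. The response was −2.68 in wild type (limma adjusted p = 6.22e-05) and −1.28 in knockout (limma adjusted p = 0.00226). The difference was −1.40 (SE 0.22, limma adjusted p = 0.0125), and, with wild type dark at 24 h, it was at most −0.82. The call was lost without either 12 h knockout array, at limma adjusted p of 0.0551 and 0.0552. The other 2 miRNAs of its seed, miR-148a and miR-148b, were not called. miR-148b was at 0.43 (SE 0.11, limma adjusted p = 0.0811), and at −1.38 with the software total.

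3 further negative calls were of miRNAs that fell in wild type. miR-532-5p is made from an intron of Clcn5. It read 4.60 and 4.57 in untreated wild type, 3.33 and 3.33 at 24 h, 3.34 and 3.42 in untreated knockout, and 3.33 and 3.81 in knockout at 24 h. The untreated wild type arrays stood above the other 6, and the difference was −1.45 (SE 0.19, limma adjusted p = 0.00566). Treated wild type alone was limited as a group, which gave a bound of at most −0.87. The first treated knockout array was also at the floor, and a lower true level there would raise the difference, so this bound is not firm. miR-374 read 4.37 and 4.57 in untreated wild type, 3.33 and 3.33 at 24 h, 4.19 and 4.27 in untreated knockout, and 3.98 and 3.84 in knockout at 24 h. It thus reached the floor in wild type alone, and its difference was −0.82 (SE 0.11, limma adjusted p = 0.00566), at most −0.24. miR-335-5p, from the imprinted gene Mest, read 4.73 and 4.89 in untreated wild type, 3.33 and 3.58 in wild type at 24 h, and 3.33 on all 4 knockout arrays. Its fitted difference was −1.35 (SE 0.12, limma adjusted p = 0.000972), but with the knockout at the floor before and after treatment it has no bound. With any 1 of the 12 arrays left out, the differences ranged from −1.69 to −1.21 for miR-532-5p, −0.92 to −0.72 for miR-374 and −1.48 to −1.23 for miR-335-5p. With the 8 compared arrays alone, miR-335-5p remained called, while miR-532-5p and miR-374 did not.

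The last 4 calls were of dim miRNAs whose difference has no bound. miR-9, best known from neural progenitors, read 4.39 and 4.59 in untreated knockout and 3.33 on the other 6 arrays. Its fitted difference of 1.17 (SE 0.08, limma adjusted p = 0.000338) rests on those 2 untreated knockout arrays. miR-532-3p read 3.87 and 4.12 in untreated wild type and 3.33 on the other 6 arrays, with a difference of −0.67 (SE 0.10, limma adjusted p = 0.00936). With any 1 of the 12 arrays left out, the differences ranged from 1.07 to 1.27 for miR-9, −0.79 to −0.54 for miR-532-3p and 1.07 to 1.38 for miR-503. With the 8 compared arrays alone, miR-9 remained called, while miR-532-3p and miR-503 did not. miR-337-5p, from the Dlk1-Dio3 imprinted domain, was the only one of the 12 that rose in wild type. It read 4.38 and 4.07 in wild type at 24 h, 3.46 and 3.33 in knockout at 24 h and 3.33 on the 4 untreated arrays. The first 24 h wild type array did not detect it, so its rise rests on an undetected reading and on the second array. miR-337-5p had a difference of 0.83 (SE 0.15, limma adjusted p = 0.0269). Its call was lost without any 1 of 7 arrays, the 4 untreated ones, both 12 h knockout ones and the second 24 h knockout one, at limma adjusted p from 0.0551 to 0.096, and with the scan as a fixed block, at 0.0919. miR-542-5p, the last inside the threshold, read 4.39 and 4.45 in untreated wild type, 4.15 and 4.25 in untreated knockout, and 3.33 on all 4 tunicamycin arrays. Its difference was −0.22 (SE 0.04, limma adjusted p = 0.0361), and it was lost without any 1 of 8 arrays, which were all of the 12 h and 24 h arrays but the first 24 h knockout one, and the second untreated wild type one, at limma adjusted p from 0.0639 to 0.111.

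Just outside the threshold stood miR-210, the miRNA induced by hypoxia through HIF. It read 4.85 and 4.81 in untreated wild type, 3.33 and 3.33 at 24 h, 6.83 and 6.87 in untreated knockout, and 4.65 and 4.70 in knockout at 24 h. It fell in both genotypes and was higher in knockout at both times. The difference was 0.67 (SE 0.15, limma adjusted p = 0.0555), with wild type at the floor after treatment. A lower true level there would lower the difference, so its direction is not settled. miR-361, within the span of Chm, was not called at −1.30 (SE 0.34, limma adjusted p = 0.0918), with a bound of at most −1.16. Over all 256 tested, 6 miRNAs had a bound above 0 and 11 a bound below 0, taken from group means without the spread between arrays and without counting a single array at the floor as a limit. Those not called also include miR-193b at −1.60, miR-296-5p at −1.42, miR-207 at 1.45, miR-671-5p at 1.16, miR-721 at 0.80 and miR-188-5p at 0.27. The SE of miR-207 was 2.09, larger than its difference.

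**Figure D3:**
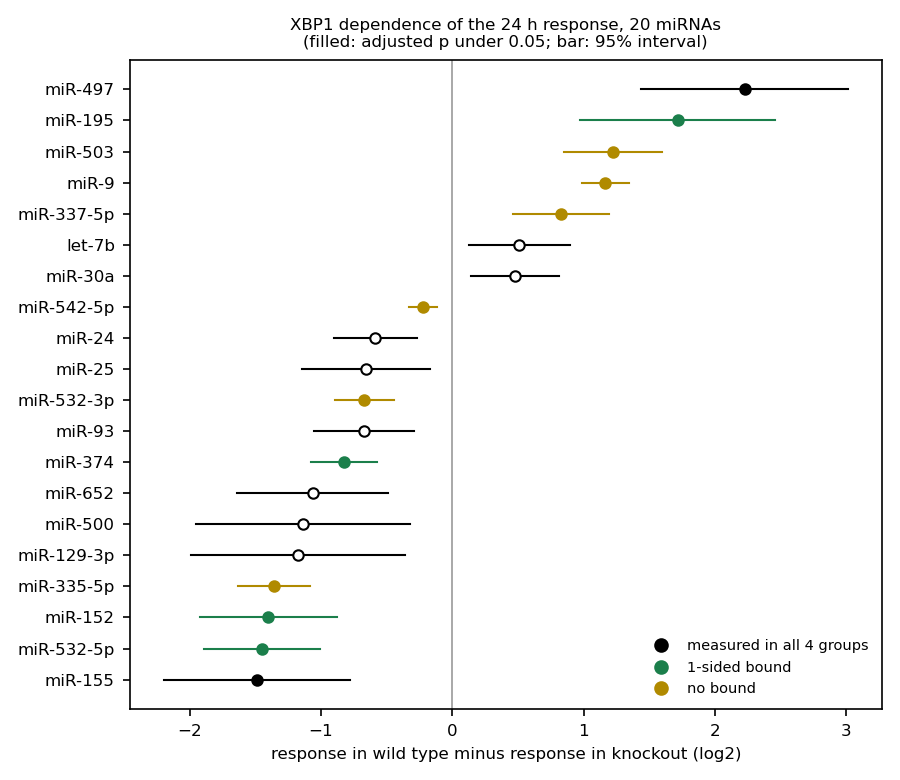
Response in wild type minus response in knockout (log2) for the 12 called miRNAs and the 8 with the smallest p among those detected on all 8 arrays and not called; bars are 95% intervals of the fit, filled points have an adjusted p under 0.05, and colour shows whether the value is measured, a bound or without a bound. miR-497 at 2.22 and miR-155 at −1.49 are the extremes and the only black filled points.

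Among the 99 bright miRNAs, those detected on all 8 arrays, 54 differences were negative and 45 positive, with a median of −0.03. That median was −0.15 with quantile normalization and 0.13 with a median log2 shift. Those nearest to a call are given next. miR-24, of the miR-23/27/24 clusters, read 8.93 and 8.95 in untreated wild type, 8.92 and 8.82 at 24 h, 8.87 and 8.95 in untreated knockout, and 9.33 and 9.51 in knockout at 24 h. Only the treated knockout arrays stood apart, above the other 6. miR-24 rose in knockout by 0.51 (limma adjusted p = 0.012), and the difference was −0.59 (SE 0.13, limma adjusted p = 0.0555). miR-652, within the span of Tmem164, read 6.39 and 6.33 in untreated wild type, 5.34 and 5.01 at 24 h, 6.61 and 6.55 in untreated knockout, and 6.42 and 6.48 in knockout at 24 h. It fell in wild type by 1.19 (limma adjusted p = 0.00301), and both treated wild type arrays lay below the other 6. Its difference was −1.06 (SE 0.24, limma adjusted p = 0.0555).

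miR-93, miR-106b and miR-25 are cut from 1 transcript in an intron of Mcm7, and this cluster is known to be lowered through PERK during endoplasmic reticulum stress and to repress the death gene Bim. miR-93 read 6.97 and 6.86 in untreated wild type, 6.33 and 6.30 at 24 h, 6.53 and 6.56 in untreated knockout, and 6.57 and 6.67 in knockout at 24 h. It fell in wild type by 0.60 (limma adjusted p = 0.0108), and the difference was −0.67 (SE 0.16, limma adjusted p = 0.065). miR-25 read 7.56 and 7.49 in untreated wild type, 7.60 and 7.43 at 24 h, 6.99 and 6.96 in untreated knockout, and 7.42 and 7.82 in knockout at 24 h. It rose in knockout by 0.65 (limma adjusted p = 0.0268), and the difference was −0.66 (SE 0.21, limma adjusted p = 0.146). The called change was thus a fall in wild type for miR-93 and a rise in knockout for miR-25, and the 2 were not tested against each other. miR-106b had a difference of −0.57 (SE 0.32, limma adjusted p = 0.619), with knockout arrays at 7.51 and 8.30 at 24 h. None of the 3 was called, and their median was −0.66.

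4 more bright miRNAs complete this group, none of them called. let-7b read 10.15 and 10.20 in untreated wild type, 10.98 and 10.74 at 24 h, 10.25 and 10.24 in untreated knockout, and 10.45 and 10.37 in knockout at 24 h. It rose in wild type by 0.68 (limma adjusted p = 0.00686), and the difference was 0.51 (SE 0.16, limma adjusted p = 0.15). miR-30a had a difference of 0.48 (SE 0.14, limma adjusted p = 0.132), having risen in wild type by 0.43 (limma adjusted p = 0.0233). miR-500, another Clcn5 miRNA, stood at −1.13 (SE 0.34, limma adjusted p = 0.141). miR-129-3p, a miRNA of neurons, stood at −1.18 (SE 0.34, limma adjusted p = 0.131). For the 99 bright miRNAs the median standard error of a difference was 0.364 and the median interval spanned 0.861 to either side, so differences under that size could not be resolved for most of them.

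Few of the lists of related miRNAs held a call. The Clcn5 intronic miRNAs gave 2 negative calls, miR-532-5p and miR-532-3p, among 6 tested, 5 of which were negative, with a median of −1.07. The 5 miRNAs of the miR-23/27/24 clusters were all bright and gave no call, with 4 of 5 negative and a median of −0.44. miR-27a among them was at −0.52 (SE 0.30, limma adjusted p = 0.619). The let-7 family gave no call among 9, with a median of −0.12, and let-7c at 0.41. The Dlk1-Dio3 imprinted cluster gave 1 positive call among 18, miR-337-5p, with a median of 0.21 and miR-329 at 0.72 (SE 0.38). Among the Hox-cluster miRNAs none of 5 was called, with miR-196b at 1.12 (SE 0.55). The Sfmbt2 intronic cluster, the largest list, gave no call among 29, with a median of 0.03 and a range from −0.34 to 1.48. Its members miR-669c and miR-466c-5p were at 0.90 (SE 1.02) and 0.61 (SE 0.76). None of 35 tested passenger strands was called, and miR-9*, the partner of miR-9, was at 0.88 (SE 0.27, limma adjusted p = 0.141).

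Lists linked to the unfolded protein response gave no calls. miRNAs reported to be cleaved by IRE1 had 3 of 4 tested, with differences from −0.32 for miR-125b-5p to 0.99 for miR-34a and a median of −0.10. miR-34a, best known as a p53 target, read 6.99 and 6.93 in untreated wild type, 7.62 and 7.55 at 24 h, 7.86 and 7.88 in untreated knockout, and 8.05 and 6.94 in knockout at 24 h. The 2 knockout arrays at 24 h lay further apart than those of any other group, and the difference had an SE of 0.44 (limma adjusted p = 0.455). Of the miRNAs linked to PERK, ATF6 or CHOP, 7 of 14 on the array were tested, none was called, and the median was 0.08. miR-222 in that list was at 0.64 (SE 0.28, limma adjusted p = 0.455).

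Single arrays and settings moved the medians of these lists. Without the first and without the second 24 h knockout array the median was −0.43 and 0.93 for the Sfmbt2 cluster, −0.43 and 0.11 for let-7, 0.12 and −0.26 for the IRE1 list, and 0.23 and 0.018 for the Dlk1-Dio3 cluster. Without the first and without the second 24 h wild type array it was 0.46 and 0.035 for Sfmbt2, −0.45 and 0.12 for let-7, −0.31 and 0.12 for the IRE1 list, and 0 and 0.36 for the PERK, ATF6 or CHOP list. The median of the miR-23/27/24 clusters kept its sign, between −0.67 without the first 24 h knockout array and −0.28 without the second 24 h wild type array. The Clcn5 median was −0.34 with normexp, and −0.056 over the 3 members that the deposited values allow. The median of miR-93, miR-106b and miR-25 was −0.32 with normexp, −0.96 with quantile normalization and 0.088 with the software total. The Dlk1-Dio3 median was 0 with quantile normalization and −0.031 with no scaling, the let-7 median 0.031 and the IRE1 median 0.059 with the median log2 shift.

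Most fibroblast markers were detected in every group. Of 11 fibroblast and mesenchymal miRNAs on the array, 10, 8, 10 and 10 were detected on both arrays in untreated wild type, treated wild type, untreated knockout and treated knockout. Their summed scaled signal ran from 20550 to 21870, 15720 to 21310, 27450 to 28240 and 21110 to 22360 in the same order, and of the 10 tested only miR-152 was called, while miR-22 was at 0.39 (SE 0.20). All 8 epithelial markers were undetected in every group. Of the 2 endothelial markers, 1 was detected on 1 of the 2 treated knockout arrays, and both were undetected on the other 7 arrays. Of 7 muscle markers, 1 was detected on both untreated knockout arrays and none on both arrays of another group. Neural markers were detected on both arrays in every group, 3 and 2 of 7 in untreated and treated wild type and 5 and 2 in knockout. Of the 5 tested, miR-9 was called at 1.17, while the 2 bright ones lay on the other side of 0, miR-129-3p at −1.18 and miR-129-5p at −1.46 (SE 0.47, limma adjusted p = 0.151), neither of them called. These 2 were named after their values were seen. Their summed signal ran from 200.1 to 203.1 and from 84.2 to 135.9 in untreated and treated wild type, and from 123.5 to 128.5 and from 92.6 to 110.9 in knockout. The part of these shifts in the results was not tested.

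**Figure D4:**
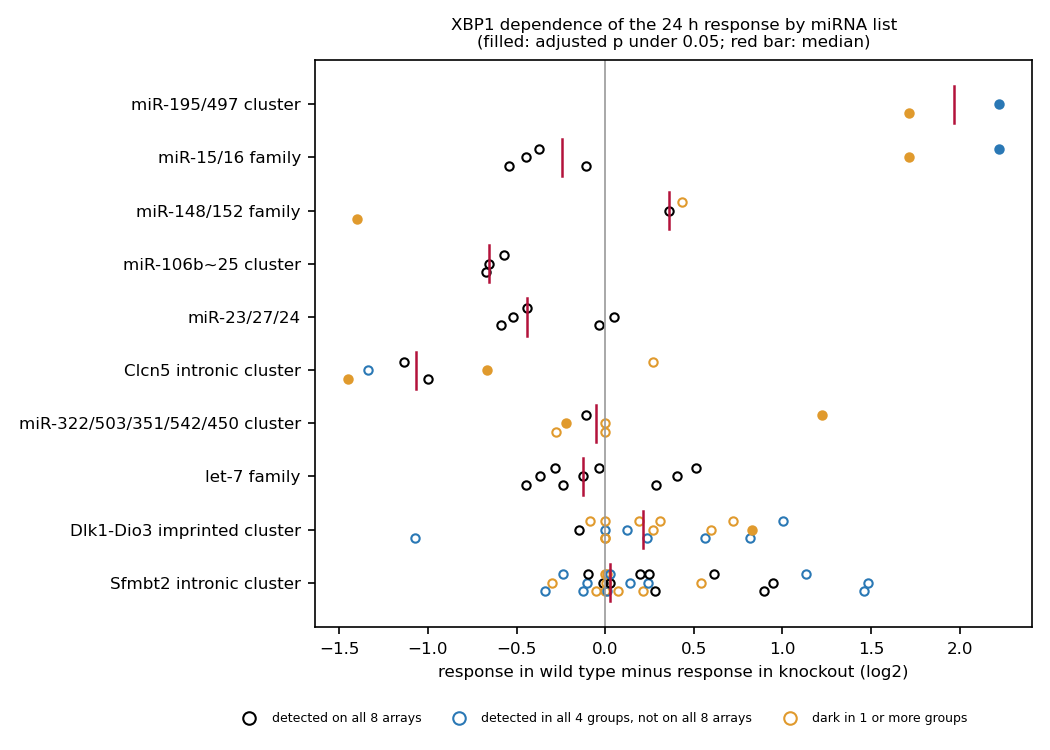
Response in wild type minus response in knockout (log2) for the tested members of 10 lists of related miRNAs, 1 point per miRNA, coloured by detection and filled where the adjusted p was under 0.05; red bars are medians. The pair of miR-195 and miR-497 stands at 1.72 and 2.22 while the other 4 members of the miR-15/16 family lie between −0.54 and −0.11, and the 3 miRNAs of the miR-106b~25 cluster lie together near −0.66 with no filled point.

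The difference of responses combines 4 group means, and the called miRNAs reached it in different ways. In wild type 45 of 256 miRNAs changed at 24 h (17.6%), 38 of them downward (14.8%), and of the 12 called miRNAs 8 fell and 1 rose. In knockout 36 of 256 changed (14.1%), 28 of them downward (10.9%), and of the 12 called 7 fell and 1, miR-155, rose. Before treatment 32 of 256 differed between the genotypes (12.5%), among them 9 of the 12, with 5 higher in wild type and 4 higher in knockout. At 24 h 20 of 256 differed (7.81%), among them 5 of the 12. Both genotype differences share arrays with the XBP1 dependence, which is the 24 h one less the untreated one. For miR-497 the genotype difference, wild type minus knockout, went from −1.18 untreated (limma adjusted p = 0.015) to 1.04 at 24 h (limma adjusted p = 0.0418). For miR-152 it went from 0.33 to −1.07 (limma adjusted p = 0.00622 at 24 h). The others called at 24 h were miR-374 at −0.59 (limma adjusted p = 0.00447), miR-337-5p at 0.83 (limma adjusted p = 0.00458) and miR-155 at 1.33 (limma adjusted p = 0.00976). Of these 5, miR-155 alone had a 24 h genotype difference of opposite sign to its dependence.

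The 12 h arrays give the same difference at an earlier time, with the untreated arrays in common. Side by side, the 12 h and 24 h values were 2.22 and 2.22 for miR-497, 2.01 and 1.72 for miR-195, −1.48 and −1.49 for miR-155, and −1.46 and −1.35 for miR-335-5p. For miR-152 they were 0.10 and −1.40, for miR-374 −0.29 and −0.82, for miR-532-5p −1.21 and −1.45, and for miR-337-5p 0.65 and 0.83. They were equal at both times for miR-9 (1.17), miR-503 (1.23), miR-532-3p (−0.67) and miR-542-5p (−0.22), which were at the floor on all 8 treated arrays. The change from 12 h to 24 h was tested directly. None of 256 miRNAs (0%) was called in that test by limma, and 10 had an unadjusted p under 0.05. miR-152 was among the nearest, at −1.50 (limma adjusted p = 0.065). That count went up to 43 without the first 24 h knockout array, 22 without the first 12 h wild type array, 12 without the second 12 h wild type array, 7 without the first 24 h wild type array, 3 without the second 24 h knockout array and 1 without the second 12 h knockout array.

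The count of 12 calls depended on single arrays and on the background correction. It was 44 without the first 24 h knockout array, 20 without the second, and 7 without either 12 h knockout array, which enter through the shared estimate of the spread. With the 8 compared arrays alone 4 were called, and 3 of them, miR-9, miR-195 and miR-335-5p, were among the 12. With the normexp correction of raw signals, which adds an offset of 50 to every spot, 2 miRNAs were called and none of the 12 was among them. The difference of miR-497 was then 0.76 and that of miR-155 −0.49. With no scaling between arrays 24 were called, 22 positive and 2 negative, against 5 and 7 with scaling, and the median over all tested was 0.14. With scaling to the median there were 4 positive and 11 negative calls, with quantile normalization 6 and 5, with the 75th percentile over all mouse miRNAs 5 and 4, and with a median log2 shift 7 and 7.

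The authors' deposited log2 values gave another set of calls. They equal the log2 of the scanner software's total signal per miRNA to within 1.15e-06. For 679 of 2169 detected mouse miRNA values on the 12 arrays (31.3%), that total was the total of the detected miRNA that precedes it in name order plus some of the miRNA's own probe totals, to within a fraction of 1e-04. For 1384 values it was the sum of all the miRNA's own probes, for 106 the sum of part of them, and none fell outside these 3 cases. Where the preceding total was included, the software total was a median of 6.35 times the miRNA's own. For miR-155 on the first untreated knockout array the software total was 114.3, its own probes summed to 21.07, and miR-152 before it had 96.62. Of the 792 values of the 99 bright miRNAs, 119 were of this kind, in 37 of the miRNAs. The software's detection call equalled a probe total over 3 times its error in 7332 of 7332 cases and was therefore not touched. With the software's probe totals summed per miRNA, 11 miRNAs were called and 10 of them were among the 12. With its total per miRNA 24 were called, of which 2, miR-152 and miR-497, were among the 12, and miR-155 had a difference of −0.03. With the authors' deposited values, which leave out undetected miRNAs, only miR-497 and miR-155 of the 12 could be tested. Neither was called, with miR-497 at 2.70 (limma adjusted p = 0.0581) and miR-155 at −0.03 (limma adjusted p = 0.999), and 18 other miRNAs were.

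**Figure D5:**
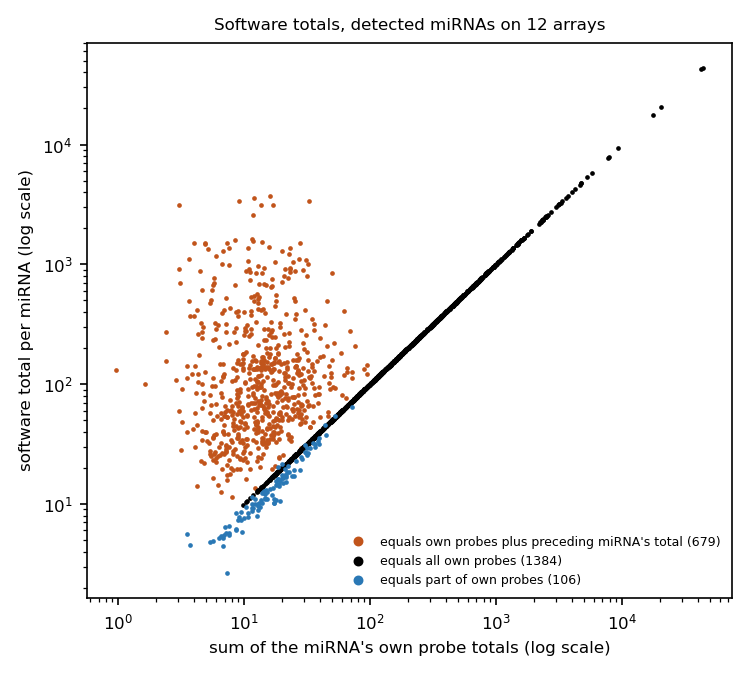
Scanner software's total signal per detected mouse miRNA and array against the sum of that miRNA's own probe totals, both on log axes, for 2169 values on 12 arrays. The 1384 black points lie on the diagonal, while 679 orange points, whose total includes that of the preceding miRNA, lie above it, most of them toward the left of the plot.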

How the data were processed

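Small RNA was measured on 12 1-colour Agilent miRNA arrays, 8 of them compared here. Per the file headers, the deposited spot intensity values were background-subtracted with Agilent Feature Extraction 10.7.1.1 and not normalized between arrays. The authors' deposited log2 values are those of the software's total gene signal. For further steps, the sources used here give none. Spots marked as outliers were dropped, spot means summed over the probes of a miRNA, each array scaled to its 75th percentile over 95 mouse miRNAs detected on all 12 arrays, values floored at the 5th percentile of detected signals, and log2 taken. Of 611 mouse miRNAs, 256 were detected on both arrays of at least 1 of 6 groups and tested with limma 3.58.1 in R 4.3.3, with 1 mean per group, all 12 arrays and an intensity trend (6 residual degrees of freedom, prior 0.981). The code was tested on simulated data.

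A group was limited where it was dark or where both arrays were at the floor. The second condition was added after values were seen. Normexp used the median spot signal, since the files hold no mean. Named miRNAs were all called ones, the 8 not called with the smallest p among those detected on all 8 arrays, those with informative bounds, and the few of each list with the smallest p. Members and lists were chosen with earlier results of these data known. Names were looked up in RefSeq (GRCm38.p6) tables for 27 miRNAs, of which 26 matched. Alternatives were other scalings, backgrounds, floors, filters, summaries, blocks and leaving out each array. Deviations of same-numbered replicates correlated at 0.867 between the untreated genotypes and 0.522 between the treated ones, but at −0.409 to −0.547 across treatment, so the numbers were not taken as pairs.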

Additional observations from a re-analysis of the deposited data

Results flagged for a closer look

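The 24 h response differed between wild type and knockout by a test of the difference itself in 12 miRNAs (limma, Benjamini-Hochberg adjusted p under 0.05). Positive differences on the log2 scale were found for miR-497 at 2.22, miR-195 at 1.72, miR-503 at 1.23, miR-9 at 1.17 and miR-337-5p at 0.83. Negative differences were found for miR-155 at −1.49, miR-532-5p at −1.45, miR-152 at −1.40, miR-335-5p at −1.35, miR-374 at −0.82, miR-532-3p at −0.67 and miR-542-5p at −0.22. miR-497 and miR-155 alone were measured above the floor in all 4 groups, and each came near it in 1 of them. For miR-155 this was untreated knockout, and for miR-497 treated knockout, where 1 of the 2 arrays did not detect it.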

How the results depend on the processing

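Calls (limma, Benjamini-Hochberg adjusted p under 0.05) depended on the processing, and no cause was tested except where the setting's own construction shows it (fewer miRNAs, fewer arrays or raw signals with an offset). The alternatives by scan as a fixed block, median log2 shift, array weights and software probe totals were chosen after seeing the data. The XBP1 dependence at 24 h gave 12 calls, 24 with no scaling, 2 with normexp, 24 with the software total, 3 with values at the floor left out, 1 among miRNAs detected on all 8 arrays, 7 with no filter, 4 with the 8 arrays alone, and 7 to 44 with 1 array left out. The next counts do not track miR-155, which was not among the calls with quantile normalization, normexp, the software total or the deposited values. The 1 call among the 99 bright miRNAs became 0 with the 75th percentile over all miRNAs, no scaling, the floor at the 10th percentile, the 8 arrays alone or the scan as a fixed block. It became 2 with outlier spots kept, the filter on the 4 groups or no filter, 3 with array weights, 4 with no intensity trend or the scan as a random block, 5 with median scaling or the median log2 shift, 6 with the software total or the deposited values, and 0 to 21 with 1 array left out.

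The 45 calls in wild type became 16 with the 75th percentile over all miRNAs, 145 with no scaling, 189 with normexp, 19 among miRNAs on all 8 arrays, 29 with the scan as a fixed block, and 24 to 77 with 1 array left out. The 36 calls in knockout became 16, 173, 188 and 17 under the first 4 of these settings, 59 with the software total, 55 with the deposited values, 23 with no filter, and 17 to 63 with 1 array left out. Splits moved too: normexp gave 183 higher and 6 lower calls in wild type against 7 and 38. With no scaling 1 was higher and 144 lower in wild type, and 0 were higher and 173 lower in knockout. The 32 untreated genotype calls became 20 with quantile normalization, 18 with the 75th percentile over all miRNAs, 49 with no scaling, 15 with normexp, 12 on all 8 arrays, 21 with the 8 arrays alone, 102 with array weights, and 19 to 56 with 1 array left out. The 20 calls at 24 h became 0 with no scaling (26 at an unadjusted p under 0.05), 4 with normexp, 33 with the deposited values, 13 with the floor at the 10th percentile or no filter, and 16 to 58 with 1 array left out. The 0 calls for the change from 12 h to 24 h became 2 with normexp or no intensity trend, 7 with the software total, 1 with the floor at the 10th percentile, the filter on the 4 groups, the scan as a random block or the median log2 shift, and 0 to 43 with 1 array left out.

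The call held in 28 of 30 alternatives for miR-9 and miR-335-5p, 27 of 32 for miR-497 and 26 of 30 for miR-532-5p. It held in 25 of 30 for miR-503, 23 of 30 for miR-532-3p, 23 of 31 for miR-152 and 19 of 30 for miR-374. The remaining counts were 19 of 31 for miR-195, 17 of 33 for miR-155, 10 of 29 for miR-337-5p and 11 of 30 for miR-542-5p. An alternative was counted only where the miRNA could be tested, and miR-155 alone of the called miRNAs was tested in all 33. With groups wholly at the floor, miR-9 and miR-335-5p could not be tested with values at the floor left out. Their higher counts therefore do not make their calls firmer than those of miR-497 or miR-155. The sign of miR-542-5p turned with quantile normalization (0.083), the 75th percentile over all miRNAs (0.17) and no scaling (0.53). With no scaling it also turned for miR-152 (0.050), miR-374 (0.51), miR-337-5p (−0.20) and miR-329 (−0.16). With normexp it turned for miR-335-5p (0.12), miR-361 (0.21), miR-188-5p (−0.056) and miR-207 (−0.026). With the software total it turned for miR-503 (−0.78), miR-337-5p (−1.21), miR-148b (−1.38), miR-222 (−2.09), miR-188-5p (−0.86), miR-671-5p (−1.26), miR-721 (−3.57), miR-296-5p (2.32) and miR-329 (−0.020). With that total and the deposited values alike it turned for miR-652 (0.48), miR-93 (0.088), miR-25 (0.14) and miR-466c-5p (−0.64), and with the deposited values for miR-296-5p (3.31). With values at the floor left out it turned for miR-207 (−0.93). With 1 array left out, 5 values lay on both sides of 0. Without the first and without the second 24 h knockout array these were −0.95 and 3.84 for miR-207, −0.33 and 2.12 for miR-669c, and −0.34 and 1.57 for miR-466c-5p. Without the second and without the first 24 h wild type array they were −0.40 and 2.00 for miR-721 and −0.99 and 1.54 for miR-188-5p.

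With the replicate block, 13 miRNAs were called for the XBP1 dependence at 24 h, all 12 and miR-484, and the counts were 45 in wild type, 33 in knockout, 31 untreated and 19 at 24 h. The numbers do not pair the samples across treatment. Dim signal sets the limit for 118 of the 256 tested miRNAs, which were dark or at the floor in at least 1 group, and for 71 of them both 24 h groups were.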
